A study of Solanum lycopersicum with 4 samples.

Results

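The genes described here are the 5 members of the FRUITFULL and APETALA1 clade of MADS-box genes in tomato (Solanum lycopersicum), chosen by gene identifier from 34727 genes listed. FUL1 (Solyc06g069430.2.1, an identifier of chromosome 6), FUL2 (Solyc03g114830.2.1, chromosome 3), MBP10 (Solyc02g065730.1.1, chromosome 2) and MBP20 (Solyc02g089210.2.1, chromosome 2) are the FRUITFULL-type genes. MC (MACROCALYX, Solyc05g056620.1.1, chromosome 5) is the APETALA1-type gene. Their mRNA was sequenced in shoot meristems of plants mutant in TERMINATING FLOWER (TMF), a gene of the plant ALOG family, and in wild-type plants. Greenhouse plants were sampled on day 8 from germination, when the labels call the meristem late vegetative. Each genotype had 2 biological replicates, each of them made from pooled meristems of multiple plants. The sources used here do not state the mutant allele or the cultivar, and only 1 stage was sampled, so no course over time can be followed.

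MADS-box proteins of this clade bind DNA as dimers and larger complexes, most often together with SEPALLATA proteins. In flowering plants, FRUITFULL-type genes are known for promoting the change from vegetative to inflorescence meristem and, in tomato, for fruit ripening. APETALA1-type genes act later, in floral meristem and sepal identity. In tomato, FUL1 and FUL2 form the ripening-associated branch, MBP10 and MBP20 form its sister branch, and MC controls sepal size and keeps the inflorescence meristem from returning to leaf formation.

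The libraries held from 17540331 to 28310492 gene-assigned reads. Levels are given as normalised reads (scaled to a library total of 10000000), and 3 reads, the limit that a count of 0 allows, equal between 1.06 and 1.71 normalised reads, depending on the library. All limits and intervals cover counting error only. TMF itself read 6.1 and 6.27 in the mutant versus 1238 and 2224 in the wild type, so this gene separated the libraries by their labels. The meristem markers TKN2, WUS and CLV3 were read in every library, with summed levels of 3067 and 1134 (mutant replicates 1 and 2) versus 911 and 1276 (wild-type replicates 1 and 2). The leaf markers RBCS1, RBCS2 and RBCS3 were also read in every library, with summed levels of 15565 and 29636 versus 20868 and 25419. Mutant replicate 1 thus had the highest sum of meristem markers and the lowest sum of leaf markers. In pooled tissue, fewer cells expressing a gene and less RNA per cell cannot be told apart.

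The comparison asks which of these paralogs differed between tmf mutant and wild-type meristems at the stage that the labels call late vegetative. FUL2 stood at a higher level in both mutant libraries, and FUL1 at a slightly lower level in both. MC was read almost entirely in 1 mutant library, MBP20 overlapped between the genotypes, and MBP10 was barely read anywhere. Of the 5 members, 4 had a mean of at least 1 normalised read and were tested, and none passed an adjusted p of 0.05 in limma, against 0.215% of the 21437 genes tested. At an unadjusted p under 0.05, FUL2 and MC passed in limma, that is 2 of the 4 tested, against 6.2% of all genes tested. With edgeR's quasi-likelihood test and with DESeq2, both on the reads recovered from the same values, 1 of the 4 passed, FUL2, against 0.252% of all genes tested in edgeR and 0.998% in DESeq2. MC entered the test only through the mutant libraries, where it is high, so these counts over tested members are a description and not support for a difference.

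**Figure D1:**
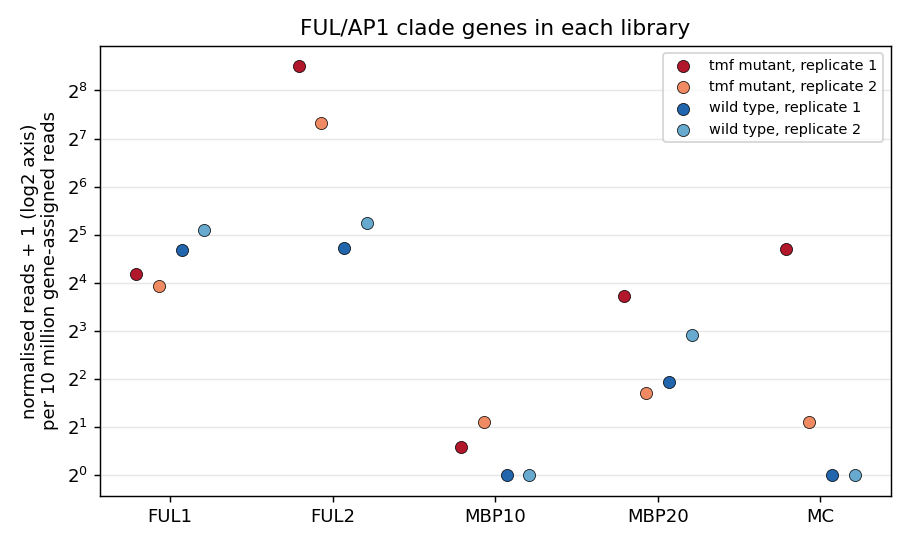
Level of each clade gene in each of the 4 libraries, as normalised reads plus 1 on a log2 axis, with 1 point per library and no mean drawn. FUL2 lies at 159.6 and 361 in mutant libraries versus 25.4 and 37 in wild-type libraries, while MC is at 24.9 in mutant replicate 1 and at 1.14 or 0 in the others.

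FUL2, a FRUITFULL-type gene also known for its role in fruit ripening, read 361 and 159.6 normalised reads in mutant replicates 1 and 2, versus 25.4 and 37 in wild-type replicates 1 and 2. The lowest mutant library exceeded the highest wild-type library, which held for 20.7% of all genes tested. The mean level was 261 ± 143 in mutant meristems versus 31.2 ± 8.17 in wild-type meristems (SD, n = 2 per genotype), a ratio of 8.35. Its log2 fold change of 2.93 had an SE of 0.43 and a limma adjusted p of 0.055, just short of the threshold. Only 0.28% of all genes tested had a log2 fold change as high or higher. The edgeR quasi-likelihood test gave a log2 fold change of 3.02 and an adjusted p of 0.034, so the call depended on the test, at much the same size. Without mutant replicate 1 the log2 fold change was 2.34 (limma adjusted p = 0.17) and without mutant replicate 2 it was 3.52 (adjusted p = 0.037).

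The mutant libraries also differed from each other at FUL2. It rested on 711 reads in mutant replicate 1 and 280 in mutant replicate 2, a ratio of normalised levels of 2.26 (95% exact counting interval 1.97 to 2.61). Of all genes tested, 2.58% showed a log2 gap in that direction as large or larger. TKN2, a KNOX gene that marks the shoot meristem, read 2797 and 1062 in the same libraries, versus 841 and 1117 for the wild type. Relative to TKN2 in the same library, FUL2 stood at 0.129 and 0.15 in mutant libraries versus 0.0303 and 0.0331 in wild-type libraries. This ratio was higher by 2.14 on the log2 scale in the mutant, and the mutant replicates differed by 0.22. Relative to WUS, the stem cell organiser gene, the difference was 2.66 on the log2 scale, with ratios of 2.3 and 3.41 versus 0.49 and 0.399. Relative to the leaf marker RBCS2 the difference was 3.04 on the log2 scale, with ratios of 0.0318 and 0.00856 versus 0.00185 and 0.00218, and here the mutant replicates differed by 1.9. FUL1 relative to TKN2 read 0.00618 and 0.0134 versus 0.0294 and 0.0296, a log2 difference of -1.7. For this ratio the mutant replicates differed by 1.12 on the log2 scale. The -1.7 also includes TKN2, which stood 0.83 higher on the log2 scale in the mutant, with the genotypes overlapping. FUL1 alone differed by -0.83, and its ratios to WUS and RBCS2 were not computed. These ratios were chosen after the values were seen and carry no test.

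**Figure D2:**
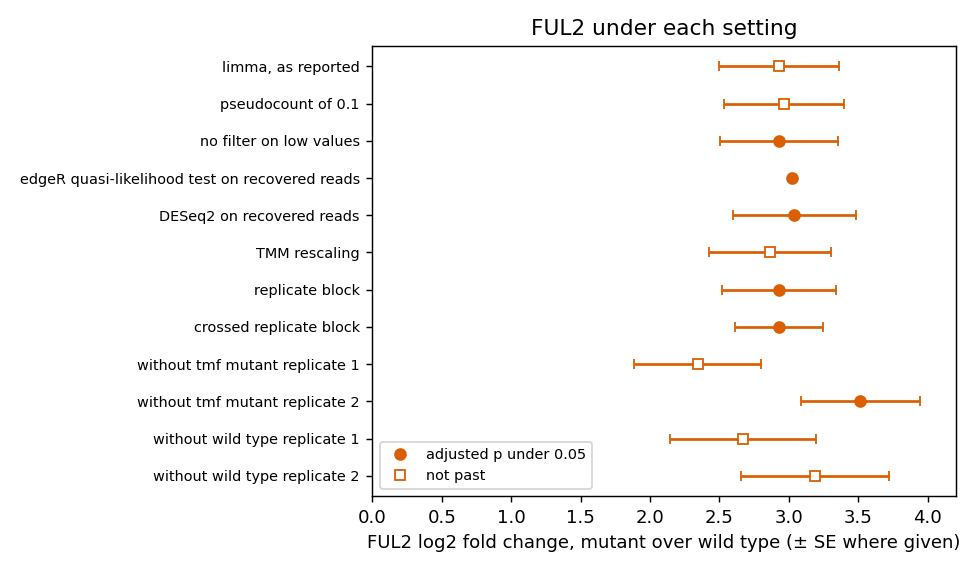
FUL2 log2 fold change of mutant over wild type under each setting, with bars for ± 1 SE where the tool gives one; filled circles passed an adjusted p of 0.05 and open squares did not. Every setting drawn gives a value between 2.34 and 3.52, and the threshold is passed in some of them only.

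FUL1, the closest FRUITFULL-type relative of FUL2 and likewise known for fruit ripening, read 17.3 and 14.3 normalised reads in mutant libraries, versus 24.7 and 33.1 in wild-type libraries. The highest mutant library stayed below the lowest wild-type library, as in 12.1% of all genes tested. The means were 15.8 ± 2.14 and 28.9 ± 5.9 (SD, n = 2 per genotype), a wild-type level 1.83 times that of the mutant. Its log2 fold change of -0.83 had an SE of 0.42 and did not pass (adjusted p = 0.86 in limma and 0.82 in edgeR), so a fall of FUL1 was not established at this replication. Of all genes tested, 2.93% had a log2 fold change as low or lower. Its precision was set by 34 and 25 reads in mutant libraries and 70 and 76 in wild-type ones. The ratio between the mutant replicates was 1.21, with an exact counting interval of 0.702 to 2.12 that includes equality, unlike at FUL2.

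Within a library, FUL2 and FUL1 were set against each other. FUL2 had 20.9 and 11.2 times the reads of FUL1 in mutant replicates 1 and 2, and 1.03 and 1.12 times in wild-type replicates 1 and 2. Of the reads of both genes together, FUL2 took 95.4% (exact 95% interval 93.7% to 96.8%) and 91.8% (88.1% to 94.6%) in the mutant. In the wild type it took 50.7% (42.2% to 59.2%) and 52.8% (44.8% to 60.7%). The intervals of the mutant libraries thus lay far above those of the wild-type libraries. On log2(value + 1), the FUL1 minus FUL2 difference was -3.85 ± 0.65 for mutant libraries versus -0.1 ± 0.08 for wild-type libraries (SD, n = 2 per genotype), a change of -3.75. The two-sided exact permutation test over the 4 libraries gave p = 0.333, the smallest it allows with 2 against 2, and 0.556 after adjustment over the 10 pairs of paralogs. These are ratios of reads, not per transcript length, so only their change between genotypes is read.

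Taken over the 5 genes, the clade had 819 and 313 reads in mutant replicates 1 and 2 versus 150 and 176 for the wild type, or 416 and 178 versus 53 and 76.6 normalised reads. FUL2 took 86.8% (exact 95% interval 84.3% to 89.1%) and 89.5% (85.5% to 92.6%) of these reads in the mutant, against 48% (39.8% to 56.3%) and 48.3% (40.7% to 55.9%) in the wild type. FUL1 took 4.15% (2.89% to 5.75%) and 7.99% (5.24% to 11.6%) in the mutant, against 46.7% (38.5% to 55%) and 43.2% (35.8% to 50.8%) in the wild type. The wild-type reads were thus shared nearly evenly by FUL1 and FUL2, and most of the mutant reads were those of FUL2.

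**Figure D3:**
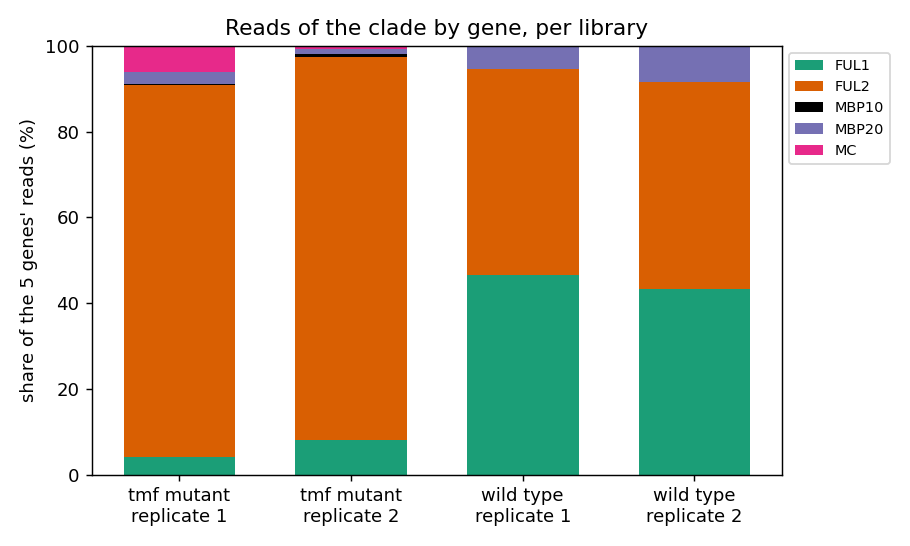
Share of the clade's reads that fell on each of the 5 genes, in percent, with 1 bar per library. FUL2 fills 86.8% and 89.5% of the mutant bars and 48% and 48.3% of the wild-type bars, and MC is visible mainly in mutant replicate 1, at 5.98%.

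MC, the APETALA1-type gene of sepal and inflorescence development, read 24.9 and 1.14 normalised reads in mutant replicates 1 and 2 and had no read in either wild-type library. That is 49 reads in mutant replicate 1 and 2 reads in mutant replicate 2, so the second value is below the limit that a count of 0 allows in that library. The pooled mutant level of 13.7 was 23.4 times the level that 3 reads over both wild-type libraries together would give. This pooled level came almost entirely from mutant replicate 1, so it sets no lower limit for the genotype, and no fold is given for mutant replicate 2. The fitted log2 fold change of 2.9 had an SE of 1.05 and did not pass in limma (adjusted p = 0.65). The fitted values were 7.87 in edgeR (adjusted p = 0.34) and 7.5 in DESeq2 (adjusted p = 0.776), and such values depend on the pseudocount or prior because the wild type is at 0. The spread between the mutant libraries was far wider here than at FUL2. Mutant replicate 1 was 21.8 times replicate 2, with an exact counting interval of 5.73 to 185, and 0.0466% of all genes tested showed a log2 gap in that direction as large or larger. Without mutant replicate 1, MC no longer reached the mean of 1 normalised read needed for testing, and without mutant replicate 2 it passed (log2 fold change 4.7, limma adjusted p = 0.037). With the replicate number as a block it passed as well (adjusted p = 0.0052) but not with the numbers crossed (adjusted p = 0.199), and nothing in the labels says that same-numbered libraries belong together. Of the 51 mutant reads of MC, 49 came from 1 pool of meristems. In that pool the meristem marker sum was also the highest, as given above, and the part of this in the MC result was not tested.

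MBP20, which is known to act with FUL2 in the change to flowering, read 12.2 and 2.28 normalised reads in mutant libraries, versus 2.83 and 6.53 in wild-type libraries. The genotypes overlapped, with the highest and the lowest value both in the mutant. The means were 7.24 ± 7.01 and 4.68 ± 2.62 (SD, n = 2 per genotype), and the log2 difference of 0.29 ± 0.75 (SE) was smaller than its error (adjusted p = 0.999 in limma and 0.978 in edgeR). Its direction turned to -0.71 without mutant replicate 1 and to -0.19 without wild-type replicate 1. It rested on 24 and 4 reads in mutant libraries and 8 and 15 in wild-type ones. Mutant replicate 1 was 5.35 times replicate 2, with an exact counting interval of 1.84 to 21.2, so these replicates differed by more than counting error.

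MBP10, the paralog of MBP20, had 1 and 2 reads in mutant replicates 1 and 2 and none in the wild type, or 0.508 and 1.14 normalised reads in the mutant. All 4 values lie within the limit that a count of 0 allows, so no fold is given and the gene was not tested.

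None of the 10 pairs of paralogs could pass the permutation test, as its smallest p is 0.333. Beside the FUL1 and FUL2 pair, FUL2 minus MBP20 was 5.2 ± 0.59 for mutant libraries versus 2.56 ± 0.32 for wild-type libraries (SD, n = 2 per genotype), a difference of 2.63. FUL1 minus MBP20 was 1.34 ± 1.24 versus 2.46 ± 0.4, a difference of -1.12, and here the genotypes overlapped. In both pairs MBP20 rested on 4 reads in mutant replicate 2. Pairs with MBP10, which had 3 reads in all, and pairs with MC, which had none in the wild type, measure the other gene against the pseudocount and are not read.

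SEPALLATA genes encode the usual partners of these proteins and some of them lie next to clade members. Of the 6 SEPALLATA genes listed, 3 rose (EJ2, TM5 and J2), 3 did not pass and none fell in limma, where 0.131% of all genes tested rose. Their median log2 fold change was 4.94, against 0.04 over all genes tested, and 4 passed in edgeR's quasi-likelihood test. The list was compiled with earlier results of these data known. LIN, a SEPALLATA gene of inflorescence branching, read 8.64 and 12 in mutant libraries versus 3.53 and 5.66 in wild-type ones (log2 fold change 1.03, limma adjusted p = 0.85), and RIN, the ripening regulator, 3.05 and 6.27 versus 1.06 and 2.61. Neither gene had its highest level in mutant replicate 1, where FUL2, MC and MBP20 had theirs. The other SEPALLATA genes, EJ2, J2, TM5 and TM29, did have theirs there. They read 596, 561, 311 and 226 in mutant replicate 1 versus 253, 98.6, 57 and 45.6 in mutant replicate 2.

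**Figure D4:**
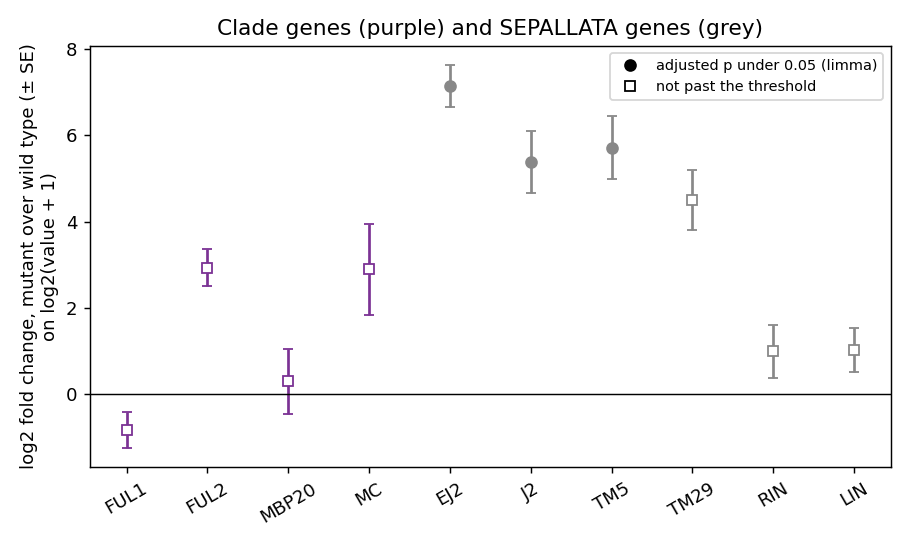
Log2 fold change of mutant over wild type on log2(value + 1), ± SE, for the 4 tested clade genes (purple) and 6 SEPALLATA genes (grey); filled circles passed an adjusted p of 0.05 in limma and open squares did not. The clade genes range from -0.83 for FUL1 to 2.93 for FUL2, and EJ2 is highest at 7.14.

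The neighbours of the members in identifier order were compared next. For MC this order may not give the neighbours on the chromosome, because a reference gene table (RefSeq) places MADS-MC elsewhere, beside RIN. In identifier order, FUL2 is followed directly by EJ2 (Solyc03g114840), a SEPALLATA gene of flower and inflorescence development. MBP20 is preceded directly by TM29 (Solyc02g089200), another SEPALLATA gene. EJ2 had 1.65 and 1.59 times the reads of FUL2 in mutant replicates 1 and 2, against 0.0556 and 0.0588 times in the wild type, where EJ2 rested on 4 and 5 reads. The ratio differed by only 0.056 on the log2 scale between the mutant replicates, although both genes differed between them. It was 4.82 higher on the log2 scale in the mutant. The wild-type reads of EJ2 are too few to show whether the ratio was constant there. Relative to TKN2, EJ2 and FUL2 also differed little between the mutant replicates, by 0.16 and 0.22 on the log2 scale. The small gap was thus not particular to EJ2 and FUL2. TM29 read 226 and 45.6 in mutant libraries versus 3.18 and 3.92 in wild-type ones (log2 fold change 4.5, limma adjusted p = 0.061), while MBP20 beside it overlapped. TM29 had 18.5 and 20 times the reads of MBP20 in the mutant replicates, against 1.12 and 0.6 times in the wild type, a difference of 4.55 on the log2 scale. MBP20 rested on 24 and 4 reads in mutant replicates 1 and 2. In the wild type, 9 and 9 reads of TM29 stood over 8 and 15 reads of MBP20. The exact permutation p is 0.333 for EJ2 over FUL2 and for TM29 over MBP20, again the smallest possible.

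**Figure D5:**
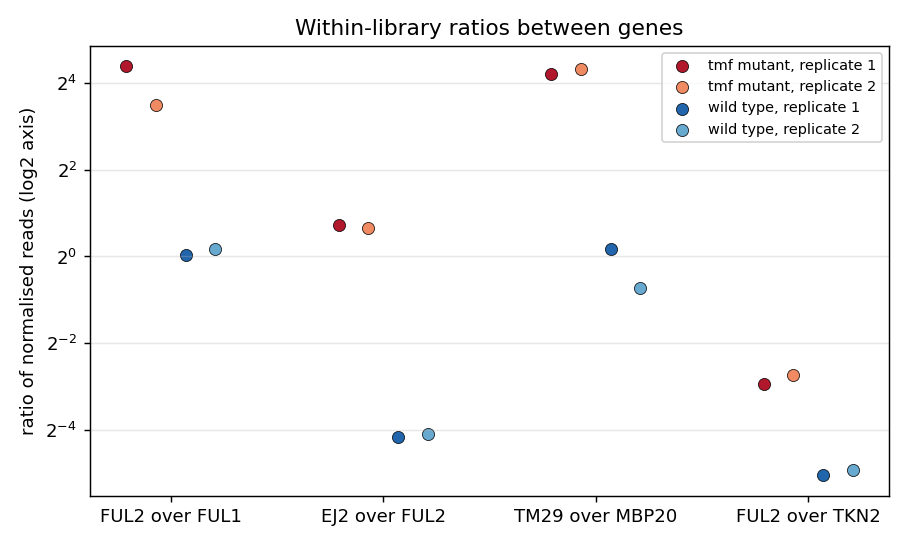
Within-library ratios of normalised reads between genes, on a log2 axis, with 1 point per library. The mutant points lie above the wild-type points in all 4 ratios drawn, from 11.2 and 20.9 against 1.03 and 1.12 for FUL2 over FUL1 to 0.129 and 0.15 against 0.0303 and 0.0331 for FUL2 over TKN2.

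Of the 18 identifiers within 2 places of a member in identifier order, those beside MC included, 14 were tested and 1 passed in limma, EJ2. In 8 of the 14 the lowest mutant library exceeded the highest wild-type library. All 4 neighbours of FUL2 were among these 8, against 20.7% of all genes tested, but they were singled out with their values known. The identifiers 2 places before and after FUL2 had log2 fold changes of 0.52 and 0.85 and did not pass (limma adjusted p = 0.83 and 0.72). Solyc03g114820, the identifier just before FUL2 and singled out with its values known, read 33 and 32.5 in mutant libraries versus 7.06 and 9.14 in wild-type ones, and did not pass (log2 fold change 1.9, SE 0.43, limma adjusted p = 0.23). Unlike FUL2 and EJ2, it stood at nearly equal levels in both mutant replicates.

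Other regulators of the change to flowering are given for context. Of 9 listed genes, 8 were found and 7 tested, and none passed in limma or edgeR, while 3 had an unadjusted p under 0.05 in limma and 2 passed in DESeq2, where 6.2% and 0.998% of all genes tested did so. Their median log2 fold change was 0.95, against 0.04 over all genes. SSP, a bZIP partner of the florigen protein, read 1411 and 1119 in mutant libraries versus 401 and 707 in wild-type ones (log2 fold change 1.24, limma adjusted p = 0.29), and FA, the tomato LEAFY gene, had a log2 fold change of 1.12 (adjusted p = 0.32). AN (ANANTHA) had the largest log2 fold change of this list, 6.03 (limma adjusted p = 0.07). It read 435 and 46.7 in mutant replicates 1 and 2 versus 0.353 and 2.61 in wild-type replicates 1 and 2. The genes that passed in DESeq2 were AN (adjusted p = 0.0053) and FA (adjusted p = 0.04). Of 7 listed B-class and C-class floral organ genes, 6 were tested, none passed in limma or edgeR, 4 had an unadjusted p under 0.05 in limma (6.2% of all genes) and 3 passed in DESeq2 (0.998%), with a median log2 fold change of 2.58. TAP3, TPI and a further B-class gene on this list had a wild-type mean under 1 and, like MC, entered the test only through the mutant libraries, so that its counts and its median are a description.

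Profiles over the 4 libraries were compared between each tested member and the 23 other tested genes among the members, TMF and these 3 lists, by Euclidean distance between centred log2(value + 1) values. FUL1 was nearest to S (COMPOUND INFLORESCENCE), a homeobox gene of inflorescence branching, at a distance of 0.37. FUL2 was nearest to TPI, a B-class gene of petals and stamens, at 0.797. TAP3 and the further B-class gene with a wild-type mean under 1 followed closely, at 0.847 and 0.87. Because TPI and these genes are near 0 in the wild type, their distances to FUL2 depend on the pseudocount. MBP20 was nearest to STM3, a SOC1-like MADS-box gene, at 0.876. MC had no close profile, its nearest being FUL2 at 1.75. With 4 libraries these distances are a description only.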

How the data were processed

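The authors deposited 1 normalised signal value per gene and library. Every library sums to 10000000. Dividing by a library's smallest nonzero value gave whole reads for 100% of nonzero values (tolerance 1e-06). Bowtie 0.12.5 and edgeR are named in the submitters' processing notes; the build, annotation, counting tool, strandedness and handling of reads shared by close paralogs have no statement in the sources used here, so FUL1 and FUL2, or MBP10 and MBP20, may share reads.

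The main test was limma 3.58.1 (R 4.3.3) with trended prior variance, run on log2(value + 1) for the 21437 genes averaging at least 1, Benjamini-Hochberg adjusted at 0.05, two-sided; this scale understates changes of low genes. edgeR 4.0.16 (quasi-likelihood, TMM) and DESeq2 1.42.0 used the recovered reads, where edgeR called 54 genes. The fits were checked on simulated counts. Adjusted p-values without a tool named are from limma.

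The members and lists were chosen with earlier results of these data known. Named were all members, TMF, SEPALLATA genes, up to 4 genes from each further list, neighbours and nearest profiles. Names rest on published nomenclature. FUL1, FUL2, MBP10 and MBP20 matched a RefSeq gene of that name (assembly SLM_r2.1) on the same chromosome within 5 percentage points of its order. MC did not: its identifier is the last listed on chromosome 5 (99.96% of the order), whereas RefSeq places MADS-MC at 26.6%, beside RIN. Among the genes found in the data, TMF, SSP, STM3 and TAGL11, which is listed with the B-class and C-class genes, have no match in that table. The further B-class gene near FUL2 in profile has an identifier of chromosome 8, whereas RefSeq places a gene of its name, GLO2, on chromosome 10. A planned division by coding length was not run, as no coding lengths were at hand, so levels are not compared between genes. Same-numbered libraries deviated with a correlation of -0.109.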

Additional observations from a re-analysis of the deposited data

How the results depend on the processing

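The crossed block, the alternatives for pairs of paralogs and the ratios to TKN2, WUS and RBCS2 were chosen after the data were seen. The 46 genes called became 214 (DESeq2), 368 (replicate block) and 219 (crossed replicate block, tried because same-numbered deviations correlated at -0.109), and from 6 to 61 when 1 library was left out, with 6 without either wild-type library; the cause was not tested. Nothing in the labels pairs same-numbered libraries, so a block is not read as stronger evidence. FUL2 kept its direction throughout. It passed with no filter on low values (log2 fold change 2.93, adjusted p = 0.046), edgeR (3.02) and DESeq2 (3.04, adjusted p = 5.32e-09). It also passed with the replicate block (2.93, adjusted p = 1.45e-09) and the crossed one (2.93, adjusted p = 0.00093). FUL2 did not pass in limma with a pseudocount of 0.1 (2.965, adjusted p = 0.077) or with TMM rescaling (2.86, adjusted p = 0.059). Its log2 fold change ranged from 2.34 to 3.52 when 1 library was left out. MC passed with the replicate block (2.9) but not with the crossed one (adjusted p = 0.199), and ranged from 2.9 to 4.7 with a library left out, and had too few reads for the test without mutant replicate 1. Its value was 5.8 with a pseudocount of 0.1. MBP20 ranged from -0.71 to 1.3 and reversed without mutant replicate 1 (-0.71) or wild-type replicate 1 (-0.19). FUL1 stayed between -1.03 and -0.62 and passed nowhere. Among pairs, those with MC or MBP10 turn on the pseudocount: FUL2 minus MC turned to -2.83 with a pseudocount of 0.1 and ranged from -1.18 to 1.24 with a library left out, with -0.23 without wild-type replicate 1; FUL2 minus MBP10 turned to -0.15 with a pseudocount of 0.1; with a library left out, MBP10 minus MBP20 ranged from -0.71 (without mutant replicate 2) to 1.81 and MBP10 minus MC from -4.1 to 0. Few reads of MC and MBP10 limit what their values can show.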
